A study of Homo sapiens with 12 samples.

Results

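Lysosome and autophagy genes were followed in RBE cells, an established human cholangiocarcinoma (bile duct cancer) line, by RNA sequencing. The set holds 36 genes that were listed by symbol and matched to the deposited table of read counts, which has 55773 gene entries. All 36 were found, all 36 held counts, and all 36 were among the 15691 genes that passed the filter on low counts. By role they are 2 transcription factors, 7 lysosomal proteases, 9 other lysosomal hydrolases and their cofactors, 7 proteins of the lysosomal membrane, channels and proton pump, and 11 autophagy proteins.

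The study had 12 libraries in 4 groups of 3. AG120_Nutlin cells were kept for 22 days in 5 µM AG-120 and then for 72 hours with 5 µM Nutlin. AG120 cells had the same 22 days of AG-120 and DMSO in place of Nutlin. In vehicle_Nutlin cells DMSO stood in for AG-120 before the same 72 hours of 5 µM Nutlin, and vehicle cells had DMSO at both steps. AG-120 (ivosidenib) inhibits mutant IDH1, the enzyme that makes 2-hydroxyglutarate in these cells, while Nutlin blocks MDM2, the protein that keeps p53 low. The labels name 1 cell line for all groups and no other alteration. They do not say whether the replicates were separate cultures, so p-values measure the spread between libraries, which may be technical.

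Lysosomes break down proteins, lipids, sugars and nucleic acids with hydrolases that need the acid made by a proton pump, the V-ATPase. Autophagy delivers cytoplasm to them inside autophagosomes, which are built by kinase, lipid transfer and conjugation factors around proteins of the ATG8 family. TFEB and TFE3 are transcription factors of the MiT/TFE family that bind CACGTG-type elements near many lysosome and autophagy genes, and p53 is known to raise several regulators of autophagy, among them the sestrins and DRAM1.

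Library totals ran from 16840161 to 27499433 counts. Levels are given as CPM, counts scaled to a common library size by the trimmed mean of M values; they are not per gene length, so levels of different genes are not compared. In each library, tested genes more than 2-fold from the mean of the other libraries of the group were counted. They made up 15.0% of all tested genes in vehicle_Nutlin replicate 3, 11.8% in replicate 2 and 7.58% in replicate 1. In AG120 replicate 1 they made up 4.64%, and in the other libraries 1.77% to 3.10%. For vehicle_Nutlin replicates 1 and 2 that mean includes replicate 3, so their shares also reflect it. The 3 libraries said below to stand apart, vehicle_Nutlin replicates 2 and 3 and AG120 replicate 1, were named in an earlier analysis of these data; this measure alone does not pick them, since vehicle_Nutlin replicate 1 exceeds AG120 replicate 1. MDM2 and CDKN1A, classical p53 targets, were 20.5-fold and 22.9-fold higher in AG120_Nutlin than in AG120 cells, and 19.5-fold and 22.2-fold higher in vehicle_Nutlin than in vehicle cells. IDH1 stood at 100.2 to 104 CPM in AG120_Nutlin, 185 to 202 CPM in AG120, 95.8 to 132 CPM in vehicle_Nutlin and 168 to 173 CPM in vehicle cells. Of 8 biliary markers, the keratins KRT7 and KRT19 were at 470.2 CPM or more in every library, while CFTR did not exceed 0.212 CPM and MUC1 did not exceed 3.85 CPM. Of the 7 biliary markers tested, 2 were called higher and 3 lower after Nutlin in each background, with KRT7, EPCAM and MUC1 the lower ones in both. Beside them, 27.0% of all tested genes were called higher and 28.8% lower in AG-120 cells, and 26.8% and 27.1% in vehicle cells.

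Nutlin raised most of these genes in both backgrounds. The 36 genes were chosen with earlier results of these data known, so their counts are a description and no set test was run. A gene was called when its adjusted p was at most 0.05 in edgeR's quasi-likelihood test, with Benjamini-Hochberg adjustment over all 15691 tested genes. In vehicle cells 29 of the 36 genes were called higher after Nutlin and 2 lower, beside 26.8% of all tested genes called higher and 27.1% called lower. In AG-120 cells 28 were called higher and 2 lower, beside 27.0% and 28.8% of all tested genes. The median log2 fold change over the 36 genes was 0.95 in AG-120 cells, where that of all tested genes was 0.00, and 0.93 in vehicle cells, where that of all tested genes was -0.02. Without the 3 libraries that stood apart, which leaves 1 vehicle_Nutlin library, 31 were called higher and 3 lower in each background, beside 32.9% and 34.7% of all tested genes in AG-120 cells and 28.6% and 29.3% in vehicle cells. At least 2-fold rises were called for 17 of the 36 in AG-120 cells, beside 12.9% of all tested genes, and for 16 in vehicle cells, beside 11.8%.

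The separate libraries showed the same split. All 3 Nutlin libraries lay above all 3 libraries without Nutlin for 31 of the 36 genes in AG-120 cells and below them for 3, beside 35.1% of all tested genes in each direction. In vehicle cells the corresponding counts were 27 above and 2 below, beside 28.3% and 30.9% of all tested genes. Together the 36 genes took 1.56% ± 0.030 of all counts in AG120_Nutlin and 0.616% ± 0.059 in AG120 libraries, and 1.53% ± 0.092 in vehicle_Nutlin and 0.605% ± 0.017 in vehicle libraries (SD, n = 3 each). In bulk RNA a change in the share of cells that express a gene and a change in its RNA per cell cannot be told apart.

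The share of counts on mitochondrially encoded genes moved with Nutlin too. It was 4.11% to 4.42% in AG120_Nutlin and 1.32% to 1.74% in AG120 libraries, and 1.71% to 3.45% in vehicle_Nutlin and 1.02% to 1.35% in vehicle libraries. Fibroblast markers also moved: of 8 listed, 4 were tested and all 4 were called lower after Nutlin in both backgrounds, and DCN and LUM were at 0 in every library. Their summed level was 5.53 to 6.41 CPM in AG120_Nutlin, 48.4 to 52.3 CPM in AG120, 10.5 to 14.0 CPM in vehicle_Nutlin and 50.7 to 55.0 CPM in vehicle libraries. Of 8 hepatocyte markers 3 were tested, and in both backgrounds SERPINA1 and TTR were called higher after Nutlin and HNF4A lower. Their summed level, most of it SERPINA1, was 321.0 to 331 CPM in AG120_Nutlin, 168 to 195 CPM in AG120, 263 to 332 CPM in vehicle_Nutlin and 128 to 141 CPM in vehicle libraries; APOB was at 0, and ALB did not exceed 0.170 CPM. The 10 leukocyte and macrophage markers summed to 22.4 to 27.9 CPM in AG120_Nutlin, 18.8 to 23.3 CPM in AG120, 16.6 to 22.1 CPM in vehicle_Nutlin and 18.0 to 23.0 CPM in vehicle libraries. Most of that was LAPTM5, itself a lysosomal protein, at 14.6 to 26.8 CPM. After Nutlin LAPTM5 was called higher in AG-120 cells and was not called in vehicle cells. CSF1R, the only other one tested, reached 4.98 CPM and was called lower after Nutlin in both backgrounds. PTPRC and CD14 did not exceed 0.113 CPM, and CD163 and CD3E were at 0. The part of these shares and markers in the gene changes was not tested.

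**Figure D1:**
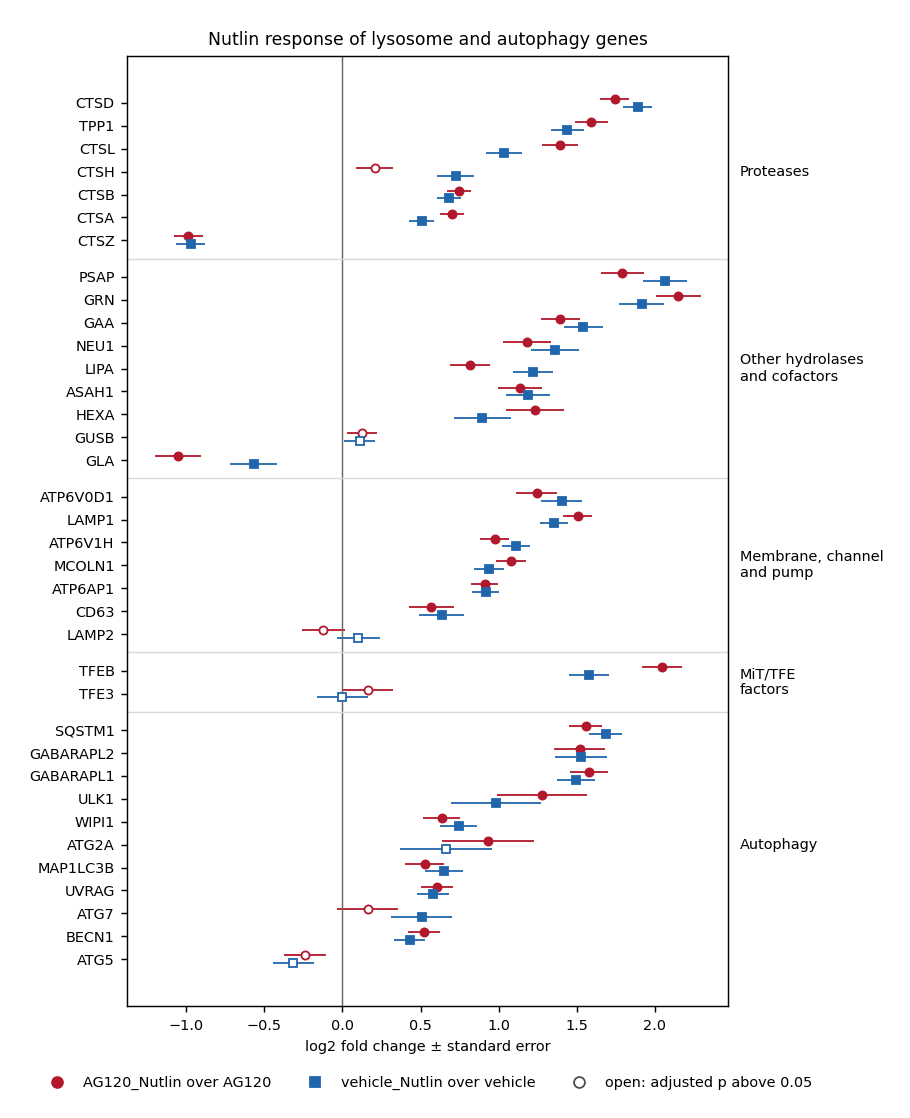
Log2 fold change after Nutlin (x axis, points, with the standard error as bars) for the 36 genes, grouped by role and ordered by the change in vehicle cells. Red circles are AG120_Nutlin over AG120 and blue squares vehicle_Nutlin over vehicle, and open symbols have an adjusted p above 0.05; most genes lie right of 0 in both, while CTSZ and GLA lie left of it.

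Of the 2 transcription factors, TFEB was called higher in both backgrounds and TFE3 in neither. TFEB stood at 53.9, 58.5 and 56.8 CPM in AG120_Nutlin libraries and at 12.4, 13.7 and 14.9 CPM in AG120 libraries. Without AG-120 it stood at 47.7, 48.1 and 35.1 CPM in vehicle_Nutlin and at 15.2, 14.4 and 14.2 CPM in vehicle libraries. The Nutlin libraries lay above the others in both backgrounds with no overlap. TFEB rose 4.13-fold in AG-120 cells (log2 2.05 ± 0.13, SE; edgeR adjusted p = 2.67e-08) and 2.99-fold in vehicle cells (log2 1.58 ± 0.13; adjusted p = 3.27e-07). The gene lies at chr6:41651716-41703997 in hg19.

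TFE3, its relative, stood at 114, 115 and 115 CPM in AG120_Nutlin and 102, 102 and 103 CPM in AG120 libraries. These groups did not overlap, but the log2 difference was 0.16 and was not called (edgeR adjusted p = 0.428). In vehicle_Nutlin libraries TFE3 stood at 113, 111 and 64.0 CPM, against 98.8, 95.9 and 93.9 CPM in vehicle libraries. Replicate 3 of vehicle_Nutlin was the low one, and with it the fitted fold was 1.00; without that library the log2 difference was 0.22 (adjusted p = 0.00682), and the AG-120 difference was called as well (0.15; adjusted p = 0.0260). Over the alternatives tried, the adjusted p of TFE3 ran from 0.00681 to 0.543 in AG-120 cells and from 0.00272 to 1 in vehicle cells. Other MiT/TFE genes moved apart. TFEC reached 12.4 ± 0.182 CPM (SD) in AG120_Nutlin cells, against 0.115 ± 0.0772 CPM in AG120 cells. Without AG-120, TFEC was at 15.2 ± 2.49 CPM in vehicle_Nutlin and 0.162 ± 0.105 CPM in vehicle cells. MITF fell by 2.03 on the log2 scale in AG-120 cells and by 1.31 in vehicle cells.

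Because TFEB binds such elements, the RefSeq promoters of the members (GRCh38.p14, 250 bases before to 50 after each start) were searched for CACGTG and for the longer TCACGTGA. Each motif reads the same on both strands, and every TCACGTGA contains a CACGTG. A promoter was given for 29 of the 36 genes. The 5 windows of 60 bases here show every member promoter with TCACGTGA, 5′ to 3′ on the gene's own strand, with 1 copy of that motif in capitals.
LAMP1, chr13:113297184-113297243, plus strand: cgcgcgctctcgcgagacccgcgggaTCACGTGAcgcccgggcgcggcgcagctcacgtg
GAA, chr17:80101478-80101537, plus strand: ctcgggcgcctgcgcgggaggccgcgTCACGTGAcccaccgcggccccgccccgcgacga
ATP6V0D1, chr16:67481184-67481243, minus strand: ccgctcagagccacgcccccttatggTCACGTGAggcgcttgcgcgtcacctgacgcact
MCOLN1, chr19:7522556-7522615, plus strand: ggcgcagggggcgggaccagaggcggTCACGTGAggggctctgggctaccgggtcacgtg
CTSA, chr20:45891283-45891342, plus strand: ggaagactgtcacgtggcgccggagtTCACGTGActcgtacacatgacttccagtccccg

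The capitals begin 29 bases before the start for LAMP1, 77 for GAA, 60 for ATP6V0D1, 42 for MCOLN1 and 26 for CTSA, and the promoters of LAMP1, GAA and MCOLN1 hold TCACGTGA 2 times. TCACGTGA was found for 5 of 29 members (17.2%), beside 2.14% of the 10064 tested genes with a promoter and 1.18% of all 27305 genes in the table. CACGTG was found for 8 of 29 (27.6%), adding CTSD, NEU1 and CD63, beside 12.3% of tested genes and 8.77% of all genes. All 8 were called higher after Nutlin in both backgrounds, as were 15 of the 21 matched members without the motif in vehicle cells and 14 in AG-120 cells. Among all tested genes with CACGTG, 28.5% were called higher in AG-120 cells and 27.6% in vehicle cells, and among those without it 28.2% in each. Among all tested genes with TCACGTGA, 32.1% were called higher in AG-120 cells and 29.3% in vehicle cells. Among those without it the shares were 28.2% in AG-120 cells and 28.1% in vehicle cells. Such elements are known near many lysosome and autophagy genes, so the member shares are a description only. Genes with several starts, such as CD63 with 8, had more sequence searched. The part of TFEB or of these motifs in the gene changes was not tested.

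Of the 7 proteases, 5 rose and 1 fell after Nutlin in AG-120 cells, and 6 rose and 1 fell in vehicle cells. Beside the counts by role, 27.0% of all tested genes were called higher and 28.8% lower in AG-120 cells. In vehicle cells these shares were 26.8% and 27.1%. Cathepsin D, CTSD, the main aspartic protease of lysosomes, stood at 1540.4, 1585 and 1561 CPM in AG120_Nutlin and 471, 466 and 463 CPM in AG120 libraries. Without AG-120, CTSD stood at 1367, 1349 and 1467 CPM in vehicle_Nutlin and 387, 398 and 344 CPM in vehicle libraries. Its groups lay far apart, and it rose 3.35-fold in AG-120 cells (log2 1.74 ± 0.09; edgeR adjusted p = 5.18e-09) and 3.70-fold in vehicle cells (log2 1.89 ± 0.09; adjusted p = 3.09e-09). CTSD lies at chr11:1773982-1785222 in hg19.

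TPP1, a serine peptidase that removes tripeptides, stood at 297, 296 and 298 CPM in AG120_Nutlin and 97.5, 97.3 and 101 CPM in AG120 libraries. In vehicle_Nutlin libraries TPP1 was at 242, 251 and 191 CPM, against 90.4, 81.5 and 80.5 CPM in vehicle libraries. Replicate 3 was the lowest of the vehicle_Nutlin libraries but still above every vehicle library, and TPP1 rose 3.02-fold in AG-120 and 2.71-fold in vehicle cells. CTSL, a cysteine protease, was at 148, 151 and 144 CPM in AG120_Nutlin and 44.5, 61.2 and 62.7 CPM in AG120 libraries, with AG120 replicate 1 the lowest. CTSL in vehicle_Nutlin libraries was at 129.9, 135 and 140.3 CPM, against 66.8, 64.2 and 66.7 CPM in vehicle libraries. It rose 2.63-fold in AG-120 cells and 2.05-fold in vehicle cells, with no overlap between groups.

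CTSZ, a carboxypeptidase of the cysteine cathepsin family, went the other way. It stood at 82.2, 85.8 and 88.3 CPM in AG120_Nutlin and 153, 181 and 174 CPM in AG120 libraries, and at 88.2, 94.9 and 80.1 CPM in vehicle_Nutlin and 170.2, 176 and 169 CPM in vehicle libraries. Every Nutlin library was below every library without Nutlin, and CTSZ was 1.98-fold lower after Nutlin in AG-120 cells (log2 -0.98 ± 0.09; edgeR adjusted p = 1.38e-06) and 1.96-fold lower in vehicle cells (adjusted p = 1.77e-06). The cysteine protease CTSB and the serine carboxypeptidase CTSA, which also protects NEU1, rose by less, with log2 changes of 0.74 and 0.70 in AG-120 cells and 0.68 and 0.51 in vehicle cells. The aminopeptidase CTSH rose in vehicle cells (0.72; adjusted p = 1.94e-04) and was not called in AG-120 cells (0.21; adjusted p = 0.155); without vehicle_Nutlin replicate 3 it was called there at 0.20 (adjusted p = 0.0178; 8.88e-04 to 0.327 over the alternatives tried).

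Of the 9 other hydrolases and cofactors, 7 rose and 1 fell in each background. Prosaposin, PSAP, is cut into the saposins that help enzymes degrade sphingolipids. It stood at 3684, 3746 and 3754 CPM in AG120_Nutlin and 941, 1142 and 1150.3 CPM in AG120 libraries. Without AG-120, PSAP stood at 4133, 4029.9 and 5580.4 CPM in vehicle_Nutlin and 1129, 1137 and 1020.1 CPM in vehicle libraries. The highest value was that of vehicle_Nutlin replicate 3, and no group with Nutlin overlapped its counterpart. PSAP rose 3.46-fold in AG-120 cells (log2 1.79 ± 0.14; edgeR adjusted p = 1.97e-07) and 4.18-fold in vehicle cells (log2 2.06 ± 0.14; adjusted p = 6.27e-08). Its position in hg19 is chr10:73576055-73611126.

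Progranulin, GRN (chr17:42422614-42430470 in hg19), is a secreted protein that is also carried to lysosomes and cut into granulins. GRN stood at 2484, 2717 and 2498 CPM in AG120_Nutlin and 475, 616 and 646 CPM in AG120 libraries. In vehicle_Nutlin libraries it was at 2179, 2251 and 1711 CPM, against 577, 554 and 497 CPM in vehicle libraries. Here vehicle_Nutlin replicate 3 was the lowest of its group, the reverse of PSAP, and the rise was 4.43-fold in AG-120 cells (log2 2.15 ± 0.14) and 3.77-fold in vehicle cells (log2 1.92 ± 0.14).

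GAA, the acid glucosidase that degrades glycogen, was at 411, 438 and 427 CPM in AG120_Nutlin and 179, 151 and 155 CPM in AG120 libraries, and at 430.4, 435 and 322 CPM in vehicle_Nutlin and 147, 137 and 125 CPM in vehicle libraries. It rose 2.63-fold and 2.91-fold in AG-120 and vehicle cells, with no overlap. LIPA, the acid lipase for cholesteryl esters and triglycerides, was at 258, 259.6 and 259.8 CPM in AG120_Nutlin and 134, 159.8 and 148 CPM in AG120 libraries. LIPA in vehicle_Nutlin libraries was at 262, 272 and 371 CPM, against 138, 131 and 119.8 CPM in vehicle libraries. Its rise was 1.76-fold in AG-120 and 2.33-fold in vehicle cells. The LIPA entry spans 200989 bases and overlaps 3 entries with a mean over 1 CPM, the highest being IFIT2 at 16.4 CPM, so it is not placed on the genome here.

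GLA, the alpha-galactosidase that acts on glycosphingolipids, fell. It stood at 17.2, 18.4 and 13.6 CPM in AG120_Nutlin and 33.1, 36.5 and 32.6 CPM in AG120 libraries, and at 17.7, 20.0 and 25.8 CPM in vehicle_Nutlin and 32.2, 28.8 and 33.3 CPM in vehicle libraries. No group overlapped its counterpart, and GLA was 2.07-fold lower after Nutlin in AG-120 cells (log2 -1.05 ± 0.15; edgeR adjusted p = 5.56e-05) and 1.48-fold lower in vehicle cells (log2 -0.57 ± 0.15; adjusted p = 0.00562). The sialidase NEU1, the acid ceramidase ASAH1 and HEXA, the alpha subunit of hexosaminidase A, rose by 1.18, 1.14 and 1.23 on the log2 scale in AG-120 cells and by 1.36, 1.19 and 0.89 in vehicle cells. The glucuronidase GUSB was not called in either (log2 0.13 in AG-120 and 0.11 in vehicle cells).

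**Figure D2:**
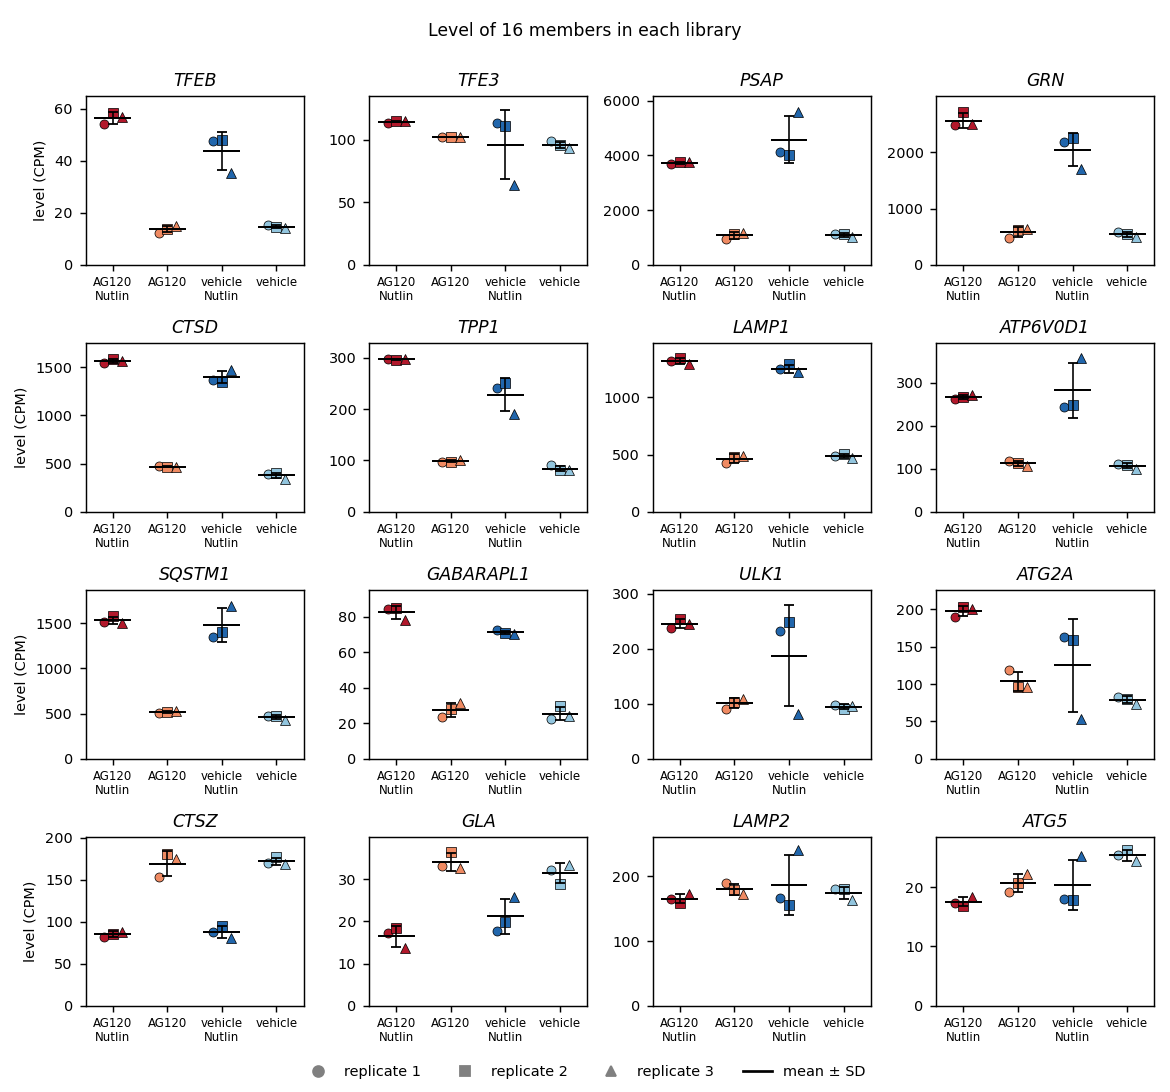
Level in CPM (y axis, each from 0) of 16 of the genes in every library of the 4 groups (x axis); symbols give the replicate and black lines the mean ± SD of 3 libraries. TFEB, PSAP, GRN and CTSD lie higher in both Nutlin groups, CTSZ and GLA lie lower, and in vehicle_Nutlin replicate 3 ULK1 and ATG2A, at 82.1 and 53.4 CPM, lie apart from the other libraries of that group.

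Of the 7 membrane, channel and pump genes, 6 rose in each background and none fell. LAMP1, an abundant glycoprotein of the lysosomal membrane (chr13:113951556-113977987 in hg19), stood at 1319, 1343 and 1294 CPM in AG120_Nutlin and 422, 482 and 488 CPM in AG120 libraries. Without AG-120, LAMP1 stood at 1245, 1289.6 and 1219 CPM in vehicle_Nutlin and 492, 508 and 469 CPM in vehicle libraries. The groups lay apart, with rises of 2.84-fold in AG-120 cells (log2 1.51 ± 0.09; edgeR adjusted p = 2.01e-08) and 2.56-fold in vehicle cells (log2 1.35 ± 0.09; adjusted p = 6.28e-08). Its relative LAMP2, which takes part in chaperone-mediated autophagy and autophagosome fusion, was not called in either background. LAMP2 was at 165, 159 and 172 CPM in AG120_Nutlin and 189, 179.5 and 172 CPM in AG120 libraries, and at 166, 156 and 241 CPM in vehicle_Nutlin and 180.0, 180.1 and 164 CPM in vehicle libraries. Its groups overlapped in both backgrounds, and the 95% interval of the log2 difference was -0.42 to 0.18 in AG-120 and -0.20 to 0.40 in vehicle cells.

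The 3 proton pump genes rose together. ATP6V0D1, a subunit of the membrane sector of the V-ATPase, was at 262, 265 and 272 CPM in AG120_Nutlin and 117, 114 and 106 CPM in AG120 libraries, and at 244, 248 and 356 CPM in vehicle_Nutlin and 111, 109 and 100.2 CPM in vehicle libraries. Its rise was 2.37-fold in AG-120 and 2.64-fold in vehicle cells, and vehicle_Nutlin replicate 3 held the highest value. ATP6V1H, a regulatory subunit of the cytosolic sector, was at 146, 142 and 147 CPM in AG120_Nutlin and 77.0, 75.0 and 69.7 CPM in AG120 libraries, and at 139, 139 and 168 CPM in vehicle_Nutlin and 68.7, 69.3 and 68.9 CPM in vehicle libraries. The accessory subunit ATP6AP1 was at 401, 425 and 414 CPM in AG120_Nutlin and 220.2, 216 and 223 CPM in AG120 libraries, and at 367, 411 and 351 CPM in vehicle_Nutlin and 209, 199 and 191 CPM in vehicle libraries. Both had Nutlin libraries above all others: ATP6V1H rose 1.96-fold in AG-120 and 2.16-fold in vehicle cells, and ATP6AP1 1.88-fold and 1.89-fold. The calcium channel gene MCOLN1 (log2 1.08 in AG-120 and 0.94 in vehicle cells) and CD63, a tetraspanin of late endosomes and lysosomes (0.57 and 0.64), rose as well. The labels give no strand for the counting, and the MCOLN1 entry overlaps that of PNPLA6, whose mean was 112 CPM against 27.4 CPM for MCOLN1, so reads of the pair may not be told apart.

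Of the 11 autophagy genes, 9 rose in each background and none fell. SQSTM1, the receptor that ties ubiquitinated cargo to ATG8 proteins, stood at 1517, 1572 and 1499 CPM in AG120_Nutlin and 510.0, 522 and 529 CPM in AG120 libraries. Without AG-120, SQSTM1 stood at 1342, 1396 and 1693 CPM in vehicle_Nutlin and 474, 470.5 and 434 CPM in vehicle libraries. It rose 2.94-fold in AG-120 cells (log2 1.56 ± 0.10; edgeR adjusted p = 4.93e-08) and 3.21-fold in vehicle cells (log2 1.68 ± 0.11; adjusted p = 2.78e-08), with no overlap. Its entry, at chr5:179233388-179265078 in hg19, overlaps that of MGAT4B, whose mean was 422 CPM against 997 CPM for SQSTM1.

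All 3 ATG8 family genes of the set, which does not hold the whole family, rose in both backgrounds. GABARAPL1 was at 84.0, 85.0 and 78.0 CPM in AG120_Nutlin and 23.7, 27.8 and 31.3 CPM in AG120 libraries, and at 72.2, 71.0 and 70.4 CPM in vehicle_Nutlin and 22.6, 29.4 and 23.9 CPM in vehicle libraries. GABARAPL2 was at 114, 104 and 101 CPM in AG120_Nutlin and 27.2, 41.8 and 42.7 CPM in AG120 libraries, and at 113, 104 and 141 CPM in vehicle_Nutlin and 41.7, 44.4 and 38.1 CPM in vehicle libraries. For both genes the Nutlin libraries were all higher, and the rises were 2.99-fold and 2.86-fold in AG-120 cells and 2.81-fold and 2.88-fold in vehicle cells. MAP1LC3B, which encodes an LC3 protein, was at 116, 109 and 108 CPM in AG120_Nutlin and 63.9, 82.7 and 85.3 CPM in AG120 libraries, and at 118, 107 and 138 CPM in vehicle_Nutlin and 80.2, 78.0 and 72.7 CPM in vehicle libraries. Its groups did not overlap either, but its rise was 1.44-fold in AG-120 (log2 0.53 ± 0.12) and 1.57-fold in vehicle cells (log2 0.65 ± 0.12). GABARAPL1 and MAP1LC3B have near-identical copies, GABARAPL3 and MAP1LC3B2, with which reads may have been split, and the MAP1LC3B entry overlaps that of FBXO31 (38.0 CPM on average, against 96.6 CPM for MAP1LC3B).

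WIPI1, which binds the lipid mark on forming autophagosomes, was at 18.7, 17.8 and 14.9 CPM in AG120_Nutlin and 10.6, 11.5 and 11.1 CPM in AG120 libraries, and at 16.1, 15.2 and 16.2 CPM in vehicle_Nutlin and 9.22, 10.2 and 8.94 CPM in vehicle libraries. It rose 1.55-fold in AG-120 and 1.68-fold in vehicle cells, with no overlap; its entry overlaps that of ARSG (3.03 CPM on average, against 13.4 CPM for WIPI1). BECN1 and UVRAG, parts of the lipid kinase complexes that act before it, rose by 0.52 and 0.61 on the log2 scale in AG-120 cells and by 0.43 and 0.58 in vehicle cells; the BECN1 entry (44.1 CPM) overlaps that of PSME3 (262 CPM).

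ULK1, ATG2A, ATG7 and ATG5 were chosen after their values were seen, because vehicle_Nutlin replicate 3 lay apart from the other libraries of its group for each of them. ULK1, the kinase that starts autophagy, was at 238, 255 and 244 CPM in AG120_Nutlin and 91.3, 104 and 108 CPM in AG120 libraries, and at 231, 248 and 82.1 CPM in vehicle_Nutlin and 97.9, 89.9 and 96.3 CPM in vehicle libraries. ATG2A, a lipid transfer protein, was at 189.8, 203 and 201 CPM in AG120_Nutlin and 119, 96.8 and 95.5 CPM in AG120 libraries, and at 163, 159 and 53.4 CPM in vehicle_Nutlin and 82.9, 80.1 and 73.7 CPM in vehicle libraries. Both were low in vehicle_Nutlin replicate 3, below every vehicle library, while the other vehicle_Nutlin libraries lay above all vehicle libraries. ULK1 was called in AG-120 cells (log2 1.28 ± 0.29; edgeR adjusted p = 0.00205) and in vehicle cells (0.98 ± 0.29; adjusted p = 0.0111), where its value was 1.33 without replicate 3 and the call was lost without replicate 2 (adjusted p = 0.0534). ATG2A was called in AG-120 cells (0.93 ± 0.29; adjusted p = 0.0163; 0.0523 without AG120 replicate 2 and 0.0523 without replicate 3). In vehicle cells ATG2A was not called (0.66 ± 0.29; adjusted p = 0.0744), and without vehicle_Nutlin replicate 3 it was, at 1.02 (adjusted p = 1.24e-07). Over the alternatives tried, the adjusted p in vehicle cells ran from 1.41e-12 to 0.0600 for ULK1 and from 4.82e-11 to 0.266 for ATG2A.

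ATG7 and ATG5 act in conjugation. ATG7, the activating enzyme for ATG8 conjugation, was called in vehicle cells at 0.51 ± 0.19 (edgeR adjusted p = 0.0426) with overlapping groups, and not in AG-120 cells (0.16 ± 0.19; adjusted p = 0.509). ATG7 was at 25.4, 20.3 and 39.3 CPM in vehicle_Nutlin and 21.0, 19.0 and 20.1 CPM in vehicle libraries; without vehicle_Nutlin replicate 3, the high one, the difference was 0.19 (adjusted p = 0.241), and its entry overlaps that of VGLL4. The ATG7 call in vehicle cells was lost under 12 of the 21 alternatives tried, among them leaving out any 1 of 8 libraries (adjusted p = 0.0516 to 0.241 where lost). Of those 8, only vehicle_Nutlin replicate 3 brought the difference down to 0.19. Where leaving out another library lost the call, the difference stayed at 0.48 to 0.54. ATG5, part of the conjugating complex, was at 17.4, 16.9 and 18.3 CPM in AG120_Nutlin and 19.2, 20.7 and 22.1 CPM in AG120 libraries, and at 18.0, 17.8 and 25.2 CPM in vehicle_Nutlin and 25.4, 26.2 and 24.4 CPM in vehicle libraries. It was not called in either background (log2 -0.24 and -0.31; adjusted p = 0.147 and 0.0618 in AG-120 and vehicle cells), and was called lower in both without vehicle_Nutlin replicate 3 (-0.25 and -0.51; adjusted p = 0.0268 and 6.17e-04).

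The spread inside groups was uneven. In vehicle_Nutlin replicate 3 the log2 level was away from the mean of the other libraries of its group by -1.59 for ATG2A, -1.55 for ULK1, -0.81 for TFE3 and 0.79 for ATG7, the 4 genes of the set past 1.5-fold there. TFEB (-0.45) was on the low side and LAMP2 (0.58), NEU1 (0.58) and CD63 (0.57) on the high side. ATG2A and ULK1 have the longest annotated coding transcripts of the set, 6357 and 5310 bases. The next longest, HEXA and ATG7 at 5252 and 4959 bases, deviated the other way, by 0.11 and 0.79. Over the 36 genes of this 1 library Spearman's rho between deviation and transcript length was -0.24. In the other 11 libraries it ran from -0.46 to 0.32. In AG120 replicate 1 GABARAPL2 lay -0.63 away, ASAH1 -0.56 and CTSL -0.48. In no AG120_Nutlin or vehicle library did a member lie more than 1.5-fold away.

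**Figure D3:**
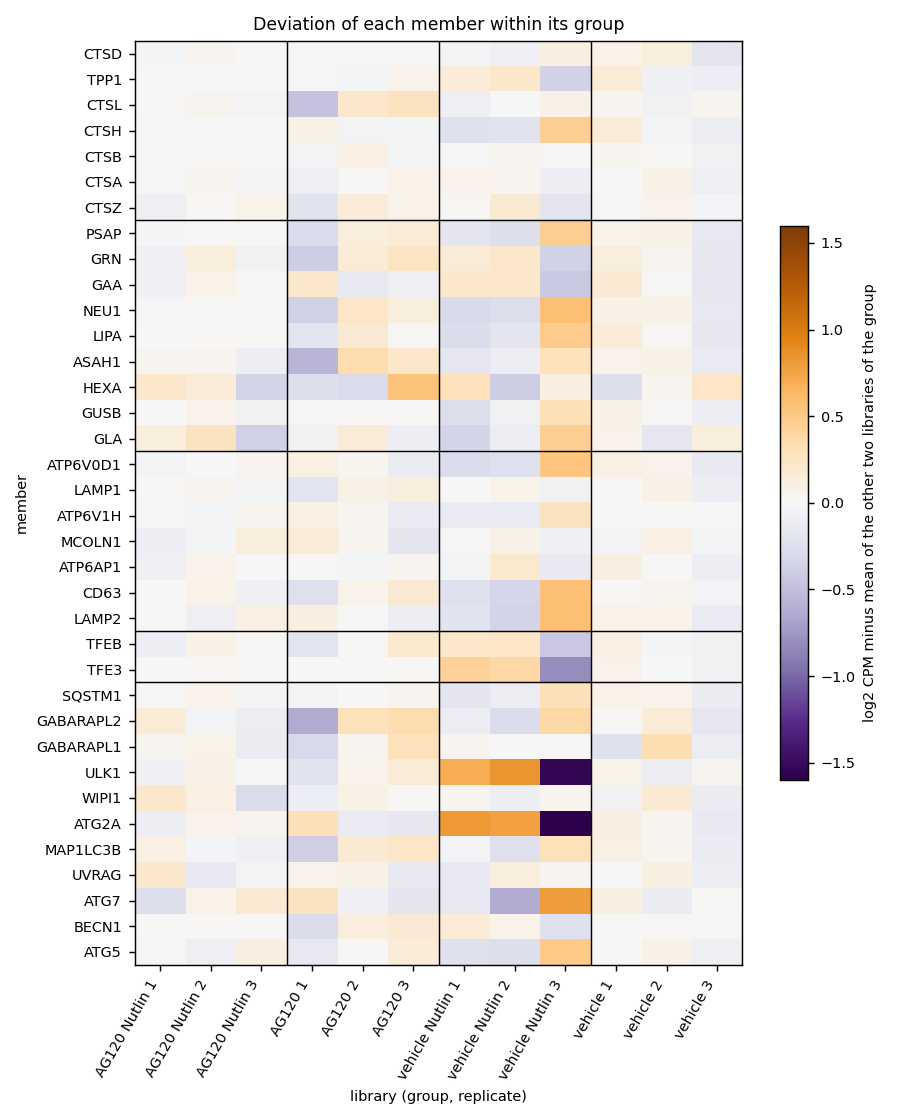
Log2 CPM of each gene (rows, grouped by role) minus the mean of the other libraries of its group, in each of the 12 libraries (columns). The darkest cells are ULK1 and ATG2A in vehicle_Nutlin replicate 3, at -1.55 and -1.59; the AG120_Nutlin and vehicle columns are close to 0.

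The Nutlin responses of AG-120 and vehicle cells, which share no library, ran side by side. Of the 36 genes 27 were called higher in both, CTSZ and GLA were called lower in both, and none was called in opposite directions. Of all tested genes 22.0% were called higher in both, 22.9% lower in both and 0.0829% in opposite directions. ATG2A was called in AG-120 cells alone, CTSH and ATG7 in vehicle cells alone, and GUSB, LAMP2, TFE3 and ATG5 in neither. Across the 36 genes Pearson's r between the log2 changes was 0.95 and Spearman's rho 0.95, and across all 15691 tested genes they were 0.92 and 0.87; genes are not independent replicates, and all points come from the same 12 libraries. The difference between the responses was tested as an interaction, the change in AG-120 cells minus that in vehicle cells. No member was called by edgeR in it, beside 0.0319% of all tested genes called higher and 0.331% called lower. DESeq2 called 0 members as well. Of the members 5 had an unadjusted p below 0.05 in edgeR, for which no share of all tested genes was worked out.

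The lowest unadjusted p-values in the interaction were those of CTSH (-0.52; adjusted p = 0.277) and TFEB (0.47; adjusted p = 0.355). TFEB was called in both backgrounds, so its value says by how much the rises differed. With 1 library left out, the interaction ran from -0.60 to -0.35 for CTSH and from 0.33 to 0.54 for TFEB. GLA (-0.48), LIPA (-0.40) and CTSL (0.36) were the others with an unadjusted p below 0.05, and the 95% intervals of all 36 differences lay between -0.94 and 1.17. Without the 3 libraries that stood apart, which leaves 1 vehicle_Nutlin library assumed to vary like the other groups, CTSL was called at 0.28 (edgeR adjusted p = 0.0468; up to 0.726 over the alternatives tried), beside 1.12% of all tested genes called higher.

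No member passed the test for AG-120 alone. In AG120 against vehicle cells edgeR called 0 of 36, beside 0.0510% of all tested genes called higher and 0% called lower. An unadjusted p below 0.05 was found for 3 members, again with no share of all tested genes worked out. All 3 AG120 libraries lay above all vehicle libraries for 10 members and below them for 3, beside 11.4% and 10.3% of all tested genes. The median log2 difference was 0.09, the values ran from -0.33 for HEXA to 0.39 for ATG2A, and the 95% intervals of the 36 differences lay between -0.73 and 1.03. CTSD, whose per-library values are given above, was higher in all 3 AG120 libraries (1.24-fold, log2 0.31 ± 0.09; edgeR adjusted p = 0.351), and DESeq2 called it (adjusted p = 0.0496) beside 0.542% of all tested genes called higher. Over the alternatives tried, the adjusted p of CTSD ran from 0.00210 to 1. ATG5 (-0.29) and TPP1 (0.23) were the others with an unadjusted p below 0.05.

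Leaving out the 3 libraries that stood apart changed that count. In AG120 against vehicle cells 8 members were then called higher by edgeR and 0 lower, beside 3.67% of all tested genes called higher. These were the protease genes CTSD (0.30) and TPP1 (0.24), the hydrolase and cofactor genes NEU1 (0.33), GRN (0.22), ASAH1 (0.29) and LIPA (0.25), and the autophagy genes SQSTM1 (0.19) and ATG2A (0.29), all as log2 differences. NEU1 had the largest of these differences. They set AG120 replicates 2 and 3 against the 3 vehicle libraries, in a fit with 1 vehicle_Nutlin library left. CTSD and ATG2A were also called when vehicle_Nutlin replicate 3 alone was left out (adjusted p = 0.0410 and 0.0298), beside 1.23% of all tested genes called higher. That library is in neither group compared. Leaving it out changed the shared estimate of spread and, with 16046 genes in place of 15691, the genes tested. The part of each was not tested. In a fit of the AG120 and vehicle libraries alone, edgeR called 0 members, beside 0.162% of all tested genes called higher and 0.0338% lower.

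**Figure D4:**
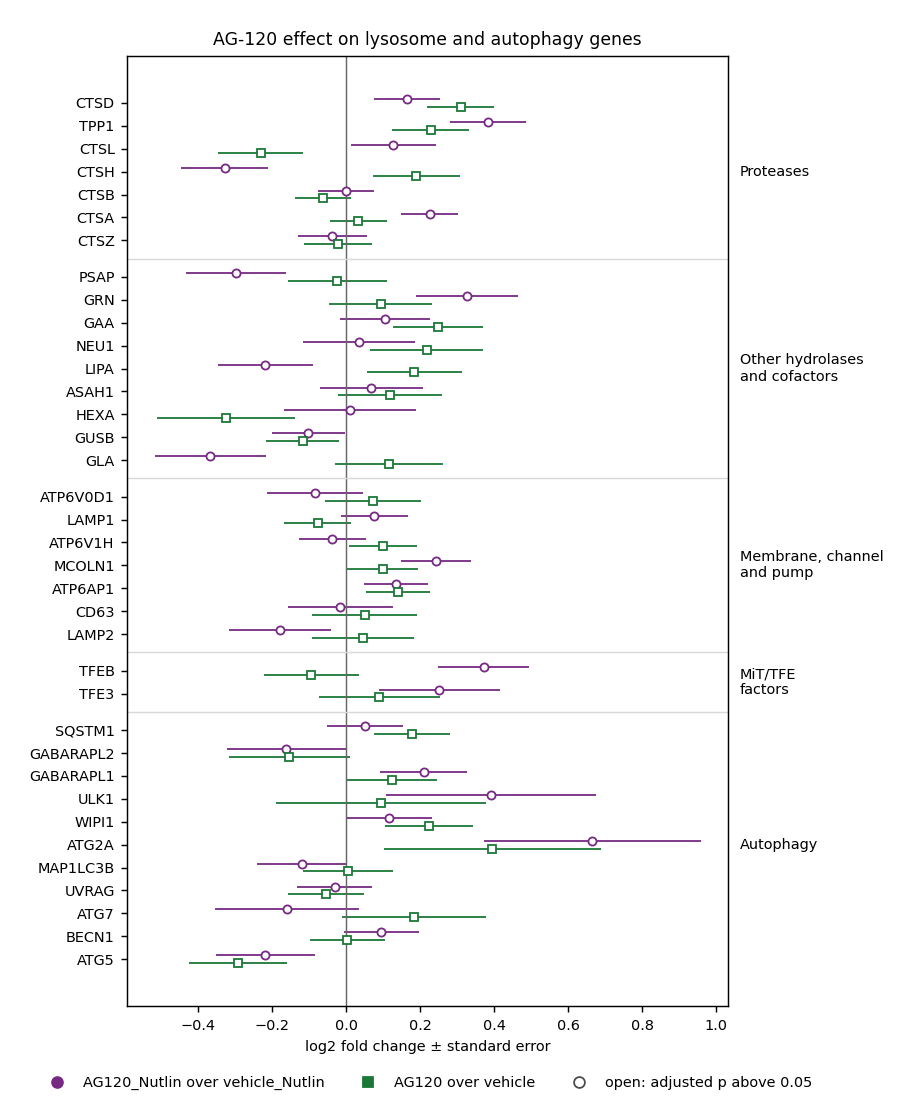
Log2 fold change with AG-120 (x axis, points, with the standard error as bars) for the 36 genes, grouped by role. Purple circles are AG120_Nutlin over vehicle_Nutlin and green squares AG120 over vehicle; every symbol is open, since no adjusted p was at most 0.05, and ATG2A has the highest values, 0.67 and 0.39.

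In the presence of Nutlin the count was also 0 of 36 in edgeR, for AG120_Nutlin against vehicle_Nutlin cells. Of all tested genes 0.433% were called higher and 1.93% lower. The share of all tested genes with an unadjusted p below 0.05 was not worked out, so the 9 such members are not read as an excess. All 3 AG120_Nutlin libraries lay above all vehicle_Nutlin libraries for 11 members and below for 3, beside 14.2% and 14.1% of all tested genes. The median log2 difference was 0.04, with values from -0.37 for GLA to 0.67 for ATG2A and 95% intervals between -0.69 and 1.30. TPP1 (0.38 ± 0.10; edgeR adjusted p = 0.0744), TFEB (0.37 ± 0.12; adjusted p = 0.127) and CTSA (0.23 ± 0.08; adjusted p = 0.137) were higher in all 3 AG120_Nutlin libraries. DESeq2 called CTSA and TPP1 (adjusted p = 0.0324 and 0.0120), beside 1.68% of all tested genes called higher. PSAP (-0.30) and CTSH (-0.33) were lower in all 3 and were not called. With 1 library left out, the TFEB difference ran from 0.24 to 0.45.

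On leaving out vehicle_Nutlin replicates 2 and 3 and AG120 replicate 1, 6 members were called higher with AG-120 in the presence of Nutlin, beside 3.80% of all tested genes called higher. They were CTSA (0.20), CTSL (0.19), TPP1 (0.31), NEU1 (0.28), GRN (0.25) and ATG2A (0.29). These values set 3 AG120_Nutlin libraries against 1 vehicle_Nutlin library. TPP1 was also called without vehicle_Nutlin replicate 1 (adjusted p = 0.0496), beside 2.60% of all tested genes called higher, and without replicate 3 (0.0338), beside 1.27%. Its adjusted p ran from 0.00571 to 0.270 over the alternatives tried. The value of ATG2A depended on vehicle_Nutlin replicate 3, without which it was 0.30.

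Other genes of the same pathways are given beside the members. Their lists were written from general knowledge, but with earlier results of these data known, so they are not an independent check. Beside every list count after Nutlin stand the same shares of all tested genes. In AG-120 cells 27.0% were called higher and 28.8% lower, and in vehicle cells 26.8% and 27.1%. Of 38 other lysosomal enzymes tested, 20 rose and 6 fell after Nutlin in AG-120 cells and 23 rose and 6 fell in vehicle cells, with medians of 0.39 and 0.57 on the log2 scale. The leading genes were the fucosidase FUCA1 (2.40 in AG-120 and 2.66 in vehicle cells), the arylsulfatase ARSA (1.60 and 1.69), and the mannosidases MAN2B1 (1.15 and 1.49) and MANBA (1.52 and 1.53). FUCA1 reached 156 ± 2.87 CPM (SD) in AG120_Nutlin cells, against 29.6 ± 1.84 CPM in AG120 cells. Without AG-120, FUCA1 was at 152 ± 27.9 CPM in vehicle_Nutlin and 24.2 ± 0.888 CPM in vehicle cells. The proteases CTSC, CTSS and CTSV were among the 6 that fell in vehicle cells (-0.98, -1.27 and -3.37), as CTSZ did.

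Of 31 other genes listed with the lysosomal membrane 17 rose and 3 fell in AG-120 cells, and 16 rose and 2 fell in vehicle cells. They were led by SIDT2, a nucleic acid transporter (1.46 and 1.50), and included SLC17A5, the sialic acid exporter (1.01 and 0.94), and OSTM1, a partner of a chloride transporter (1.12 and 1.39). The list also held GNPTAB (1.17 and 0.94), which adds the sorting tag of lysosomal enzymes and is not itself a lysosomal membrane protein. Of 19 other V-ATPase genes 13 rose in each background, while 2 fell in AG-120 cells and 1 in vehicle cells. Their medians were 0.74 and 0.89, and the leading genes were ATP6V0A1 (1.11 and 1.06), ATP6AP2 (1.35 and 1.52), ATP6V1E1 (0.97 and 1.10) and ATP6V0E2 (0.77 and 0.89). ATP6V0A4, a tissue-specific subunit, fell by 4.12 on the log2 scale in AG-120 and by 2.34 in vehicle cells. It was at 0.417 ± 0.163 CPM (SD) in AG120_Nutlin cells, against 7.23 ± 1.37 CPM in AG120 cells. Without AG-120, ATP6V0A4 was at 0.924 ± 0.337 CPM in vehicle_Nutlin and 4.75 ± 0.323 CPM in vehicle cells.

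Of 45 other autophagy genes 24 rose and 2 fell in AG-120 cells, and 28 rose and 4 fell in vehicle cells. The first 4 were TP53INP1 (3.04 and 3.32) and DRAM1 (1.61 and 2.09), both known p53 targets that act in autophagy, the ATG8 protease ATG4A (1.60 and 1.56) and ZFYVE1, a marker of forming autophagosomes (1.70 and 1.71). Of 29 genes of lysosomal nutrient signalling 14 rose and 1 fell in AG-120 cells and 16 rose and 2 fell in vehicle cells. SESN1 (3.29 and 3.49) and SESN2 (2.44 and 2.46), sestrins that restrain mTORC1 and are p53 targets, rose, as did the transcription factor FOXO1 (2.18 and 2.07). A further list of 16 autophagy-related genes, taken from work on p53 binding in mouse fibroblasts, holds 5 of the 36 members; 8 of the 16 rose and 1 fell in AG-120 cells, and 9 rose and 1 fell in vehicle cells. With AG-120 in the presence of Nutlin, SLC36A1, an amino acid transporter of lysosomes, was higher (0.63; edgeR adjusted p = 0.0209) and CTSC lower (-0.43; adjusted p = 0.0478), the 2 genes called in these lists for an AG-120 effect or an interaction.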

How the data were processed

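Raw read counts per gene, the deposited unit, were made by the authors from 12 RNA-seq libraries. Per the submitters' processing notes, Partek, STAR, HTSeq, DESeq2 and the hg19 build were used; versions, roles and strand setting are not given in the sources used here. All 12 count columns matched a sample by its description label (columns with no sample: 0).

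The tests were run with edgeR 4.0.16 under R 4.3.3 (TMM scaling; filterByExpr with a minimum count of 10, which kept 15691 genes; quasi-likelihood test; 1 fit over all 4 groups; Benjamini-Hochberg adjustment over all tested genes; threshold 0.05). Alternatives used DESeq2 1.42.0 and limma 3.58.1. The steps were tested on simulated data. Log2 CPM used a prior count of 2. Errors of log2 changes are standard errors worked out from the log2 change and the F statistic of the fit, and 95% intervals use its degrees of freedom. Errors of CPM values are SDs over the libraries of a group. Counts were not corrected for gene length. Reads carry no molecular identifiers, so depth covers counting error only.

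The members and lists were chosen with earlier results of these data known, and the 3 libraries that stood apart were known too. Genes named with values in every library were taken by rule. They were both transcription factors, every member called lower, and the 3 ATG8 family genes of the set. In each other role the 4 members with the smallest adjusted p after Nutlin in vehicle cells were taken. Of each other list, up to 4 genes with the smallest adjusted p were named. Genes outside this rule were chosen after their values were seen. One gene was taken off a list because its product is not lysosomal. GNPTAB was kept, though its product is not a lysosomal membrane protein. Gene positions are the deposited hg19 coordinates, 1-based, with the stop reduced by 1, as checked on 6 mitochondrial reading frames; promoters are RefSeq sequences of GRCh38.p14, matched by symbol.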

Additional observations from a re-analysis of the deposited data

How the results depend on the processing

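The Nutlin counts moved little. Leaving out each library in turn gave 28 to 30 members called higher and 2 to 3 lower in vehicle cells (medians 0.88 to 0.98), and 27 to 30 higher and 2 to 3 lower in AG-120 cells (medians 0.93 to 0.99). Library totals in place of TMM gave a vehicle median of 0.84, where the median of all genes was -0.10.

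For AG-120 without Nutlin, where edgeR called 0 members, DESeq2 called 1 higher (0.542% of all tested genes), limma voom 6 higher and 1 lower (3.83% and 2.03%), leaving out 1 library 0 to 2 higher (1.23% where 2 were called), and leaving out the 3 libraries that stood apart 8 higher (3.67%). For AG-120 with Nutlin, no filter on low counts gave 1 higher (ATG2A; 2.01% of all genes), DESeq2 2 (1.68%), voom 1 (2.40%), leaving out 1 library 0 to 1 (2.60% and 1.27% where 1 was called) and leaving out the 3 libraries 6 (3.80%). The interaction gave 1 without the 3 libraries (1.12%). With only the groups compared, edgeR called 0 members in either AG-120 comparison. Beside that, 0.162% of all tested genes were called higher and 0.0338% lower without Nutlin, and 0% and 0.103% with Nutlin. The cause of these differences between settings was not tested.

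The sign changed for differences near 0. TFE3 in vehicle cells after Nutlin was at -7.92e-05 in edgeR, 0.00020 with DESeq2 size factors, 0.0031 with only the groups compared, 0.00021 in DESeq2, 0.19 in voom, 0.22 without the 3 libraries, and -0.13 to 0.22 with 1 library left out. GUSB was at -0.031 in voom, -0.10 without the 3 libraries and -0.011 to 0.20 with 1 left out, and LAMP2 at -0.089, -0.093 and -0.13 to 0.22. NEU1 with AG-120 in the presence of Nutlin ran from -0.068 to 0.26 with 1 library left out, and the TFE3 interaction was -0.030 in voom, -0.068 without the 3 libraries and -0.067 to 0.30 with 1 left out.

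Whether shared replicate numbers pair the libraries was not settled. Deviations of same-numbered libraries correlated between -0.22 and 0.09, and those of differently numbered libraries between -0.19 and 0.21. With 3 libraries a group, deviations from the group mean are tied to one another, so these correlations cannot decide it. With the replicate block 28 members were higher and 2 lower in vehicle and in AG-120 cells, ATG7 was lost in vehicle cells (adjusted p = 0.0540), and the other comparisons stayed at 0. ATG7 was also lost with library totals (adjusted p = 0.0835), only the groups compared (0.115), voom (0.0631) and 8 of the 12 single libraries left out (0.0516 to 0.241), and ULK1 with only the groups compared (0.0600) and without vehicle_Nutlin replicate 2 (0.0534). With 3 libraries a group and uneven vehicle_Nutlin libraries, small differences are poorly resolved.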
